A study of Mus musculus with 12 samples.

Results

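The 10 genes described here, Fkbp5, Tsc22d3, Sgk1, Zbtb16, Hif3a, Cdkn1a, Tgm2, Errfi1, Ddit4 and Angptl4, are genes known to respond to glucocorticoids, measured in the pituitaries of Crhr1 knockout (KO) and wild-type (WT) mice in which corticosterone synthesis had been blocked with metyrapone. They were taken as every array probe that the platform annotation gives to 1 of the 10 symbols, which was 22 of the 46147 probes on the array, for 10 of the 17658 genes that the annotation names there. Of these 22 probes, 12 passed the detection filter, against 14405 of all probes, and the 12 covered 9 of the 10 genes.

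Pituitary RNA was hybridised to 12 Illumina mouse bead arrays in 6 groups of 2 arrays: KO mice killed 1 h after restraint, KO mice killed 3 h after restraint, KO control mice, WT mice killed 1 h after restraint, WT mice killed 3 h after restraint, and WT control mice. All groups shared the drug: every mouse received metyrapone intraperitoneally at 150 mg/kg, 12 h before stress, and at 100 mg/kg directly before it. Stress was 30 min of restraint in a tube, and basal blood was drawn from the orbital sinus between the second injection and the restraint. Control mice were injected in the same way and were killed between 1 and 3 h later without restraint. The labels and design text do not state the strain, sex or age of the mice or the extent of the Crhr1 deletion, and no group without metyrapone was analysed here.

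Corticosterone, the main glucocorticoid of mice, binds the glucocorticoid receptor, which then enters the nucleus and raises or lowers the transcription of genes near its binding sites. CRHR1 is the receptor through which hypothalamic corticotropin-releasing hormone drives corticotrope cells to release ACTH, and ACTH in turn drives the adrenal gland to make corticosterone. Metyrapone inhibits the enzyme of the last step of that synthesis, so that the negative feedback of corticosterone on the pituitary is reduced. Several of the 10 genes also answer to other signals: Cdkn1a to p53, Angptl4 and Ddit4 to hypoxia and fasting, and Errfi1 to growth factor signalling.

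The receptor binds best to a pair of 6-base arms separated by 3 bases. RefSeq promoter windows of 300 bases (GRCm38.p6) were at hand for 7 of the 10 genes, 16 windows in all, and were searched on both strands for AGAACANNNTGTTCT. Of 32851 windows of all genes, 3 held it (0.00913%), and 1 of these 3 belonged to Sgk1. The looser form GNACANNNTGTNC, added after the strict search, was in 156 windows (0.475%), and among the 10 genes only in that Sgk1 window. The single arm AGAACA, which the longer forms contain or overlap, was in 6233 windows (19%), including 4 of the 16 windows, which belong to Sgk1 and Tsc22d3. That Sgk1 window is shown because it holds the strict element, in capitals, which starts 189 bases before the annotated start of this window. Sgk1 has further windows at other annotated starts, and none of those held the strict element. One window each of Cdkn1a, called lower in KO by both of its probes, and of Hif3a, which had the widest fold between KO and WT groups that both detected the gene, is shown; neither window held any of the 3 letter patterns, which says only that those letters are not in these 300 bases.
Sgk1 (chr10:21993640-21993939, + strand): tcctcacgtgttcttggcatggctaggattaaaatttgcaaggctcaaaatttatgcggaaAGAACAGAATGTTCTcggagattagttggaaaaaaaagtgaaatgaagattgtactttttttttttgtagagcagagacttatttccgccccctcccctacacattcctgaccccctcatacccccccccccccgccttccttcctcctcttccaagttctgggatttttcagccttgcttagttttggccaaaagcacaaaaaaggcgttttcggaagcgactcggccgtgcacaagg
Cdkn1a (chr17:29090729-29091028, + strand): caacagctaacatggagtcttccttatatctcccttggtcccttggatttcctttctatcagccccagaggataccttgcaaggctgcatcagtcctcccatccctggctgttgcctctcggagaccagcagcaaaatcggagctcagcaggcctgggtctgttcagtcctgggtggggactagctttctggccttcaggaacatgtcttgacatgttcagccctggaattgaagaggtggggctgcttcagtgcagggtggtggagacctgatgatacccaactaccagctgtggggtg
Hif3a (chr7:17062378-17062677, - strand): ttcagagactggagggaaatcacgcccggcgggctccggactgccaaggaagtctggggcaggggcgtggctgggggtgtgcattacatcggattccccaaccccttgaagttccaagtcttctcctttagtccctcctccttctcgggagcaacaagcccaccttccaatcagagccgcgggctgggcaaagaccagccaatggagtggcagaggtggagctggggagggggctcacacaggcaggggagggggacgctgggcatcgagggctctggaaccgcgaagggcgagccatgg

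The titles call the 2 arrays of a group technical replicates, and the design text speaks of pooled RNA, so p-values measure the spread between arrays and not between mice. Replicate 1 of every group lay on 1 slide and replicate 2 on the other. Replicate 2 of the KO 3 h group stood apart, with 6119 detected probes against 9212 to 13506 on the other 11 arrays, and with r = 0.920 to its partner array against 0.964 to 0.979 in the other 5 groups. For the KO 3 h and KO control arrays the source field names 1 h of stress, against the titles; the titles were used. Of the 3 Crhr1 probes, 5390647 was detected on 0 of 6 KO and 4 of 6 WT arrays and ran from 4.68 to 5.70 on KO and from 5.72 to 6.74 on WT arrays (normalised log2 intensity). The other 2 Crhr1 probes were detected on at most 1 array of each genotype, and the place of the probes relative to the deleted part is not stated in the labels or files.

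Detection differed widely among the 22 probes (detection p under 0.01, as deposited for each probe and array). Only 3 were detected on all 12 arrays: Sgk1 probe 1400131, Tgm2 probe 5360452 and Errfi1 probe 3450273. A further 9 were detected on 2 to 11 arrays, 1 on a single array and 9 on none. Those on none include Errfi1 probe 105910181, Angptl4 probes 2480195 and 101980008 and Sgk1 probe 104200048. Tsc22d3, a leucine zipper protein induced by glucocorticoids in lymphocytes, had 3 probes on the array; 1 of them was detected on 1 array, from WT 1 h, and the other two on none. Its levels are therefore not measured here. Zbtb16, a zinc finger transcriptional repressor, was detected on 3 WT arrays and on 0 KO arrays. Zbtb16, the second Sgk1 probe (2480056) and both Cdkn1a probes passed the filter only through WT arrays, since KO arrays detected them 0 or 1 times. A probe that passes in this way tends to be lower in KO, so counts between genotypes are also given for the 8 member probes detected on at least 2 arrays of each genotype, a set formed after the values were seen. A member probe was read from 19 to 59 beads per array (median 41), and the standard error among its beads was 2.80% to 14.8% of its signal (median 6.01%).

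**Figure D1:**
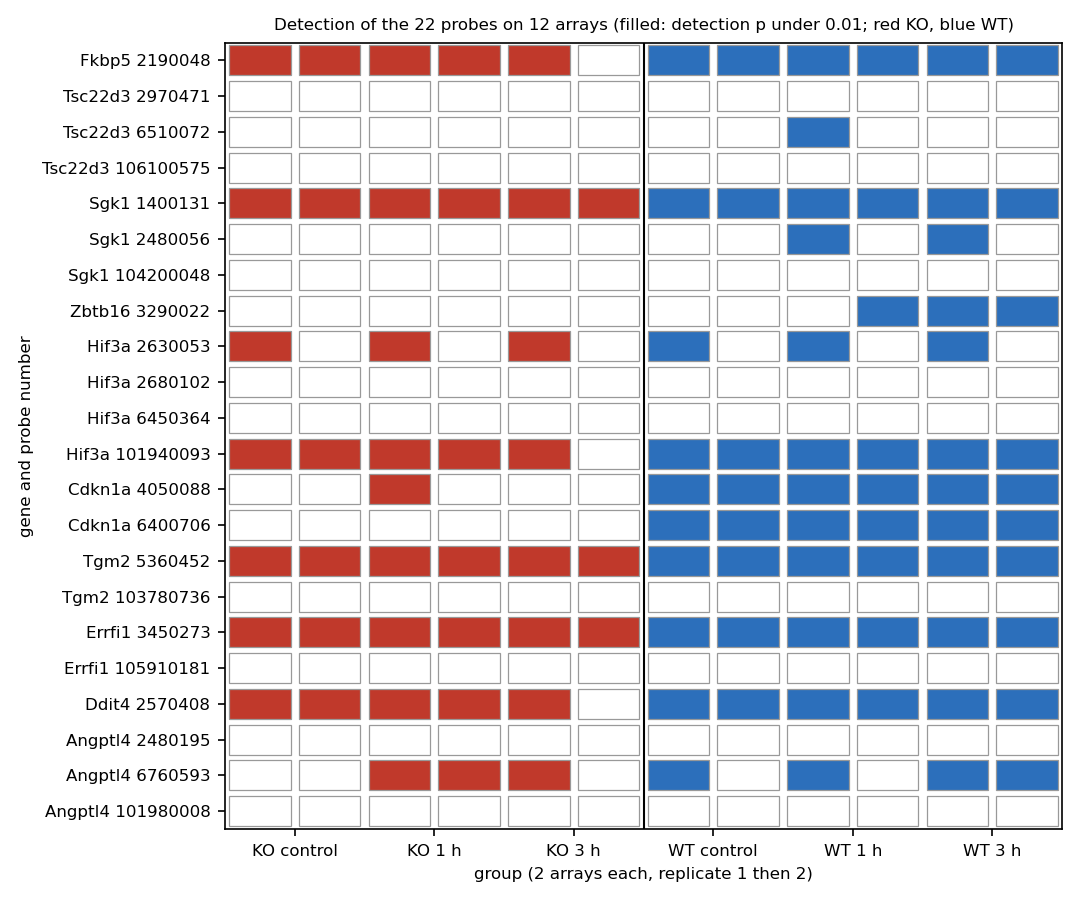
Detection of each of the 22 probes (rows, gene and probe number) on each of the 12 arrays (columns, KO groups left, WT groups right); filled cells have a detection p under 0.01, in red for KO and blue for WT. Cdkn1a probe 6400706 is filled on 6 of 6 WT and 0 of 6 KO arrays, and 9 probes are empty throughout.

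Cdkn1a, a cyclin-dependent kinase inhibitor that halts the cell cycle, was lower after normalisation on every KO than on any WT array by both probes. The raw signal of probe 4050088 was 101 and 155 in KO control, 144 and 297 in KO 1 h and 131 and 231 in KO 3 h pituitaries, against 189 and 348 in WT control, 206 and 291 in WT 1 h and 260 and 426 in WT 3 h pituitaries (replicates 1 and 2; raw signals of the 2 slides differ in scale). After normalisation the same probe had log2 intensities of 5.33 and 5.61 in KO control, 6.37 and 6.14 in KO 1 h and 5.54 and 5.06 in KO 3 h pituitaries, against 7.02 and 7.09 in WT control, 7.17 and 7.02 in WT 1 h and 7.34 and 7.72 in WT 3 h pituitaries. By this normalised level all 6 KO arrays were below all 6 WT arrays. The raw signal of replicate 2 at 1 h was not lower in KO (297 against 291 in WT). In every other pair of the same slide and treatment the raw signal was lower in KO. The probe was detected on 1 KO array and 6 WT arrays. Probe 6400706 ran from 4.99 to 5.91 on KO arrays, none of which detected it, and from 6.89 to 7.39 on WT arrays, which all did. The 2 probes had r = 0.957 with each other over the 12 arrays.

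Tests were run with limma on normalised log2 intensities of all 14405 probes that passed, and a probe is named as called where its Benjamini-Hochberg adjusted p was under 0.05 and its difference at least 1.5-fold. Between KO and WT controls, 3 of the 12 probes were called, each lower in KO, beside 1.67% of all probes in either direction and 1.06% lower in KO. Of the 8 probes detected in both genotypes 1 was called, Tgm2, beside 1.06% lower in KO among the 11886 such probes. The other calls among the 12 probes were both Cdkn1a probes, at -1.58 ± 0.22 (SE, adjusted p = 0.0158) and -1.79 ± 0.27 (adjusted p = 0.0202). Because no KO control array detected the gene, these are bounds: at least 1.80-fold lower in KO by probe 4050088 and at least 1.91-fold by probe 6400706. At 3 h they were -2.23 ± 0.22 (adjusted p = 0.00291) and -1.82 ± 0.27 (adjusted p = 0.0200), at least 1.66-fold and at least 1.33-fold lower in KO. A bound takes, on each array, the lowest signal of any detected probe or the probe's own, whichever is higher. Without KO 3 h replicate 2, the 3 h differences were -1.99 (adjusted p = 0.0128) for probe 4050088, still called, and -1.41 (adjusted p = 0.0609) for probe 6400706, no longer called. Leaving out any 1 of the 4 control arrays ended the control calls (adjusted p = 0.0898 to 0.152); the sizes then ran from -2.04 to -1.44. At 1 h the differences were -0.84 ± 0.22 (adjusted p = 0.114) and -1.30 ± 0.27 (adjusted p = 0.0638), not called. Stress gave Cdkn1a no call in either genotype. In KO 1 h against KO control pituitaries it stood at 0.79 ± 0.22 (adjusted p = 0.238) for probe 4050088, and in WT 3 h against WT control pituitaries at 0.48 ± 0.22 (adjusted p = 0.454).

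Tgm2, a transglutaminase that cross-links proteins, was measured on all 12 arrays by probe 5360452. Its raw signal was 262 and 310 in KO control, 449 and 749 in KO 1 h and 549 and 764 in KO 3 h pituitaries, against 602 and 1009 in WT control, 642 and 904 in WT 1 h and 982 and 1335 in WT 3 h pituitaries. Its normalised log2 intensity was 8.04 and 7.82 in KO control, 8.85 and 8.60 in KO 1 h and 9.07 and 8.90 in KO 3 h pituitaries, against 9.21 and 9.27 in WT control, 9.40 and 9.30 in WT 1 h and 9.81 and 9.90 in WT 3 h pituitaries. The group means thus ordered from KO control (7.93) through KO 1 h (8.72), KO 3 h (8.99), WT control (9.24) and WT 1 h (9.35) to WT 3 h (9.85), and no neighbouring groups overlapped between arrays. Tgm2 was 2.47-fold lower in KO than in WT controls (-1.30 ± 0.17 on the log2 scale, adjusted p = 0.0124). With any 1 of the 4 control arrays left out that adjusted p was 0.0777 to 0.148. It rose in KO 3 h against KO control pituitaries by 1.05 ± 0.17, 2.07-fold (adjusted p = 0.0119), and stood at 0.62 ± 0.17 in WT 3 h against WT control pituitaries (adjusted p = 0.239). The difference between these 2 responses was 0.44 ± 0.23 (KO minus WT; adjusted p = 0.375), and its 95% interval ran from -0.09 to 0.97. At 1 h the KO to WT difference was -0.63 ± 0.17 (adjusted p = 0.118), and at 3 h it was -0.87 ± 0.17 (adjusted p = 0.0423), which was called. Without KO 3 h replicate 2 the 3 h difference was -0.78 (adjusted p = 0.164), and the KO response at 3 h was 1.14 (adjusted p = 0.0286). That response was no longer called with 1 KO control array left out (adjusted p = 0.0700 or 0.125), with median scaling (0.80, adjusted p = 0.192) or with array weights (adjusted p = 0.0731). The second Tgm2 probe was detected on 0 arrays.

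Hif3a, a member of the hypoxia-inducible factor alpha family, was read by 4 probes that differed in level and detection. Probe 101940093 was detected on 11 arrays, with raw signals of 178 and 265 in KO control, 219 and 411 in KO 1 h and 276 and 470 in KO 3 h pituitaries, against 309 and 504 in WT control, 345 and 526 in WT 1 h and 849 and 988 in WT 3 h pituitaries. Its normalised log2 intensity was 7.16 and 7.45 in KO control, 7.47 and 7.27 in KO 1 h and 7.64 and 7.55 in KO 3 h pituitaries, against 8.04 and 7.96 in WT control, 8.30 and 8.34 in WT 1 h and 9.57 and 9.38 in WT 3 h pituitaries. The KO control and KO 1 h arrays overlapped; the KO 3 h, WT control, WT 1 h and WT 3 h arrays followed in that order without overlap. In WT 3 h against WT control pituitaries this probe rose by 1.47 ± 0.17, 2.78-fold (adjusted p = 0.0211), the only one of the 12 probes called there, beside 0.167% of all probes. In KO 3 h against KO control pituitaries it stood at 0.29 ± 0.17 (adjusted p = 0.292). The difference between the responses was -1.18 ± 0.24 (KO minus WT; adjusted p = 0.0880) and was not called. At 3 h it was 3.67-fold lower in KO (-1.88 ± 0.17, adjusted p = 0.00247), and -1.83 (adjusted p = 0.0127) without KO 3 h replicate 2. At 1 h it was 1.93-fold lower in KO (-0.95 ± 0.17, adjusted p = 0.0451), and in controls the difference was -0.70 ± 0.17 (adjusted p = 0.0768). The WT 3 h call was lost without any 1 of the WT control, WT 1 h or WT 3 h arrays (adjusted p = 0.0699 to 0.205), and the 1 h call without any 1 of 10 arrays (adjusted p = 0.0740 to 0.338), while the 3 h KO to WT call held in each.

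Probe 2630053 of Hif3a was detected on all 6 replicate 1 arrays and on none of the replicate 2 arrays, and its differences between KO and WT were -0.39 ± 0.49 in controls, 0.58 ± 0.49 at 1 h and 0.53 ± 0.49 at 3 h, with no call. The remaining 2 Hif3a probes were not detected on any array. The transcripts that each Hif3a probe reads are not stated in the labels or files, and the account of Hif3a rests on 1 probe.

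**Figure D2:**
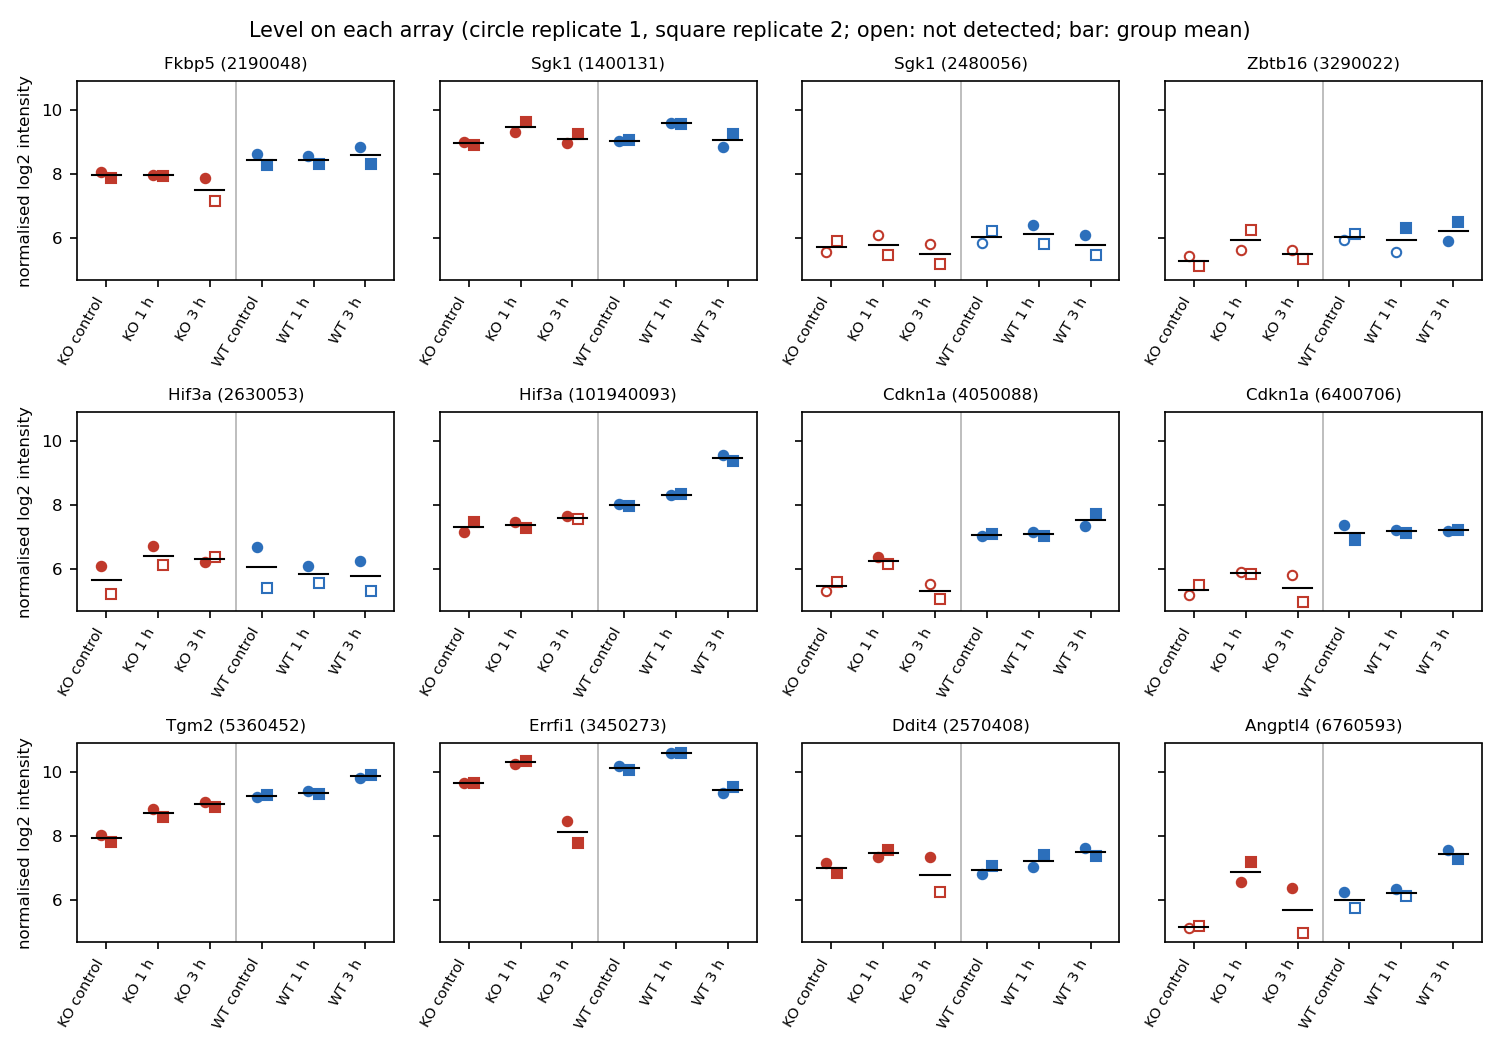
Normalised log2 intensity of the 12 probes that passed, on each array (KO groups in red at left, WT groups in blue at right; circles replicate 1, squares replicate 2, open symbols not detected, bars group means of 2 arrays). Both Cdkn1a probes, Tgm2, Fkbp5 and Hif3a probe 101940093 have all KO arrays below all WT arrays, and Hif3a reaches 9.57 and 9.38 at WT 3 h.

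Errfi1, a feedback inhibitor of the epidermal growth factor receptor, was measured on all 12 arrays by probe 3450273. Its raw signal was 667 and 869 in KO control, 1057 and 2040 in KO 1 h and 406 and 500 in KO 3 h pituitaries, against 1092 and 1596 in WT control, 1362 and 1992 in WT 1 h and 735 and 1068 in WT 3 h pituitaries. Its normalised log2 intensity was 9.66 and 9.64 in KO control, 10.25 and 10.34 in KO 1 h and 8.47 and 7.78 in KO 3 h pituitaries, against 10.17 and 10.04 in WT control, 10.60 and 10.57 in WT 1 h and 9.33 and 9.51 in WT 3 h pituitaries. Both genotypes were highest at 1 h and lowest at 3 h, and the arrays of the 3 times did not overlap within a genotype. Errfi1 fell in KO 3 h against KO control pituitaries by 1.52 ± 0.22, 2.88-fold (adjusted p = 0.0104), and with it and Tgm2, 2 of the 12 probes were called in that comparison, beside 8.68% of all probes. In WT 3 h against WT control pituitaries it stood at -0.68 ± 0.22 (adjusted p = 0.299). The difference between the responses was -0.84 ± 0.31 (adjusted p = 0.233). At 3 h Errfi1 was 2.46-fold lower in KO than in WT (-1.30 ± 0.22, adjusted p = 0.0320), and -0.95 (adjusted p = 0.0811) without KO 3 h replicate 2. The KO response at 3 h was -1.18 (adjusted p = 0.0238) without that array, and its adjusted p was 0.0700 or 0.0999 with 1 KO control array left out. At 1 h against control, Errfi1 stood at 0.64 ± 0.22 in KO (adjusted p = 0.314) and at 0.48 ± 0.22 in WT (adjusted p = 0.923), with no call.

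At 3 h after stress, 5 of the 12 probes were called lower in KO than in WT (Hif3a, both Cdkn1a probes, Errfi1 and Tgm2), and 0 higher, beside 1.38% of all probes called in either direction and 0.958% lower in KO. Of the 8 probes detected in both genotypes these were 3 (Hif3a, Errfi1 and Tgm2), beside 0.808%. At 1 h Hif3a alone was called, beside 0.812% of all probes in either direction and 0.639% lower in KO; this was 1 of the 8, beside 0.505%. The median of all 14405 probes was itself shifted in the KO 3 h group, by -0.11 against WT 3 h and by -0.11 against KO control on the log2 scale. Relative to it, the 3 h KO to WT differences were -1.77 for Hif3a, -2.12 and -1.71 for the Cdkn1a probes, -1.19 for Errfi1 and -0.76 for Tgm2, and the KO 3 h responses were 1.17 for Tgm2 and -1.41 for Errfi1. In fits that held only the 4 arrays of the 2 groups compared, 0 of the 12 were called by limma in any comparison between groups, with 7 of the 12 at an unadjusted p under 0.05 between controls (3074 of all probes), 6 at 1 h (2544) and 7 at 3 h (1069) for KO against WT. With arrays scaled by their medians only, the shift of all probes was -0.51 against WT 3 h and -0.24 against KO control. RNA came from whole pituitaries, so less RNA of a gene per cell and fewer cells that express it cannot be told apart.

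Within each slide the called differences kept their direction. Between controls, KO minus WT was -1.16 on slide 1 and -1.44 on slide 2 for Tgm2. For Cdkn1a probe 4050088 it was -1.69 and -1.48, and for probe 6400706 it was -2.19 and -1.40. At 3 h it was -1.93 and -1.82 for Hif3a, and -0.74 and -0.99 for Tgm2. Errfi1 at 3 h was at -0.86 and -1.73, Cdkn1a probe 4050088 at -1.80 and -2.66 and probe 6400706 at -1.39 and -2.24. At 1 h Hif3a was at -0.83 and -1.07. The KO 3 h responses were 1.03 and 1.08 for Tgm2 and -1.19 and -1.86 for Errfi1, and the WT 3 h response of Hif3a was 1.53 and 1.41. Of the called probes at 3 h, the size on slide 2, where the KO 3 h array stood apart, was the larger for both Cdkn1a probes, Errfi1 and Tgm2 and the smaller for Hif3a. Without a call, Fkbp5 was at -0.97 and -1.16 and Angptl4 at -1.18 and -2.32.

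**Figure D3:**
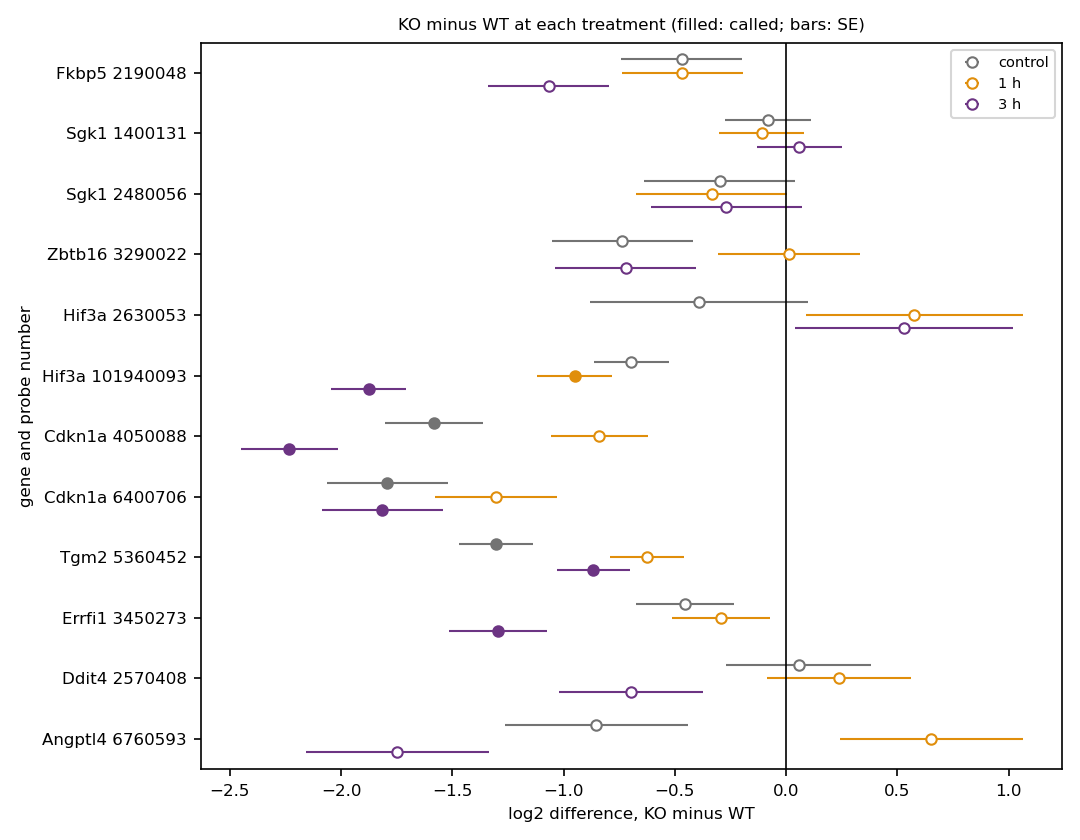
Log2 difference of KO minus WT at control, 1 h and 3 h for the 12 probes that passed (bars, SE from the limma fit; filled symbols, called). At 3 h the filled points are Hif3a (-1.88), both Cdkn1a probes (-2.23 and -1.82), Errfi1 (-1.30) and Tgm2 (-0.87), and all filled points lie left of 0.

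Fkbp5 is a co-chaperone that lowers the hormone affinity of the glucocorticoid receptor and is among its best known targets. After normalisation it was also lower on every KO array than on any WT array. Raw signals did not separate in this way: replicate 2 at 1 h was at 541 in KO and 515 in WT pituitaries. In every other pair of the same slide and treatment the raw Fkbp5 signal was lower in KO. Its normalised log2 intensity was 8.07 and 7.88 in KO control, 7.98 and 7.94 in KO 1 h and 7.87 and 7.15 in KO 3 h pituitaries, against 8.61 and 8.28 in WT control, 8.55 and 8.30 in WT 1 h and 8.84 and 8.31 in WT 3 h pituitaries. No KO array reached the lowest WT array, yet no comparison was called: the differences were -0.47 ± 0.27 in controls (adjusted p = 0.413), -0.47 ± 0.27 at 1 h (adjusted p = 0.468) and -1.07 ± 0.27 at 3 h (adjusted p = 0.101). The 3 h value was -0.71 (adjusted p = 0.368) without KO 3 h replicate 2, which did not detect the probe, and it was called with slide as a term (adjusted p = 0.0380). Stress left Fkbp5 at -0.02 ± 0.27 in KO and -0.02 ± 0.27 in WT pituitaries at 1 h, with 95% intervals of -0.63 to 0.60 and -0.64 to 0.59.

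Sgk1, the serum and glucocorticoid regulated kinase with the strict element in 1 of its windows, differed little between genotypes by its probe 1400131. Its normalised log2 intensity was 9.00 and 8.90 in KO control, 9.32 and 9.62 in KO 1 h and 8.97 and 9.23 in KO 3 h pituitaries, against 9.02 and 9.05 in WT control, 9.59 and 9.57 in WT 1 h and 8.84 and 9.24 in WT 3 h pituitaries. The 1 h arrays lay above the control arrays in both genotypes, and the KO and WT arrays overlapped at 3 h. At 1 h against control it stood at 0.52 ± 0.19 in KO (adjusted p = 0.344) and at 0.54 ± 0.19 in WT (adjusted p = 0.733). The KO to WT difference was -0.08 ± 0.19 in controls, with a 95% interval of -0.51 to 0.35, and -0.11 ± 0.19 at 1 h, from -0.54 to 0.32. At 3 h it was 0.06 ± 0.19. Where arrays were scaled by their medians only it was -0.51, which was the median of all probes under that scaling.

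Angptl4, a secreted inhibitor of lipoprotein lipase, varied more between arrays. Its probe 6760593 had log2 intensities of 5.12 and 5.18 in KO control, 6.57 and 7.19 in KO 1 h and 6.38 and 4.97 in KO 3 h pituitaries, against 6.25 and 5.76 in WT control, 6.34 and 6.13 in WT 1 h and 7.56 and 7.29 in WT 3 h pituitaries. The highest KO arrays were those of 1 h and the highest WT arrays those of 3 h. KO 1 h against KO control stood at 1.73 ± 0.41 (adjusted p = 0.180), at least 1.60-fold since no KO control array detected it, and was called without either KO 3 h array (adjusted p = 0.0335). WT 3 h against WT control stood at 1.42 ± 0.41 (adjusted p = 0.265). In KO 3 h against KO control pituitaries slide 1 gave 1.26 and slide 2 gave -0.21. The KO to WT difference at 3 h was -1.75 ± 0.41 (adjusted p = 0.0810). It was -1.04 (adjusted p = 0.242) without KO 3 h replicate 2 and -2.45 (adjusted p = 0.00260) without replicate 1, which was called. It was also called with median scaling (-1.94, adjusted p = 0.0304) and without background correction (-0.86, adjusted p = 0.0315).

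Ddit4, an inhibitor of mTOR signalling that stress and hypoxia induce, was detected on 11 arrays and gave no call. Its log2 intensity was 7.15 and 6.83 in KO control, 7.33 and 7.57 in KO 1 h and 7.33 and 6.25 in KO 3 h pituitaries, against 6.82 and 7.05 in WT control, 7.03 and 7.40 in WT 1 h and 7.61 and 7.37 in WT 3 h pituitaries. The KO and WT control arrays overlapped, and the KO 3 h arrays lay below the WT 3 h arrays, at a difference of -0.70 ± 0.32 (adjusted p = 0.307). KO 3 h replicate 2, at 6.25, did not detect Ddit4, and the lowest detected level on that array was 7.58. Zbtb16 differed by -0.74 ± 0.32 in controls (adjusted p = 0.273), by 0.01 ± 0.32 at 1 h and by -0.72 ± 0.32 at 3 h (adjusted p = 0.284). No KO array and no WT control array detected Zbtb16, so none of these values is a measured fold difference.

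At 1 h after stress 0 of the 12 probes were called by limma in either genotype. That stood beside 0.201% of all probes in KO and 0.0625% in WT; at an unadjusted p under 0.05 there were 5 of the 12 in KO (1727 of all probes) and 1 in WT (787 of all probes). The test of unequal responses in the 2 genotypes called 0 of the 12 at 1 h, beside 0.0555% of all probes, and 0 at 3 h, beside 0.139%. At an unadjusted p under 0.05 there were 3 of the 12 at 1 h (1367 of all probes) and 2 at 3 h (2421 of all probes).

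**Figure D4:**
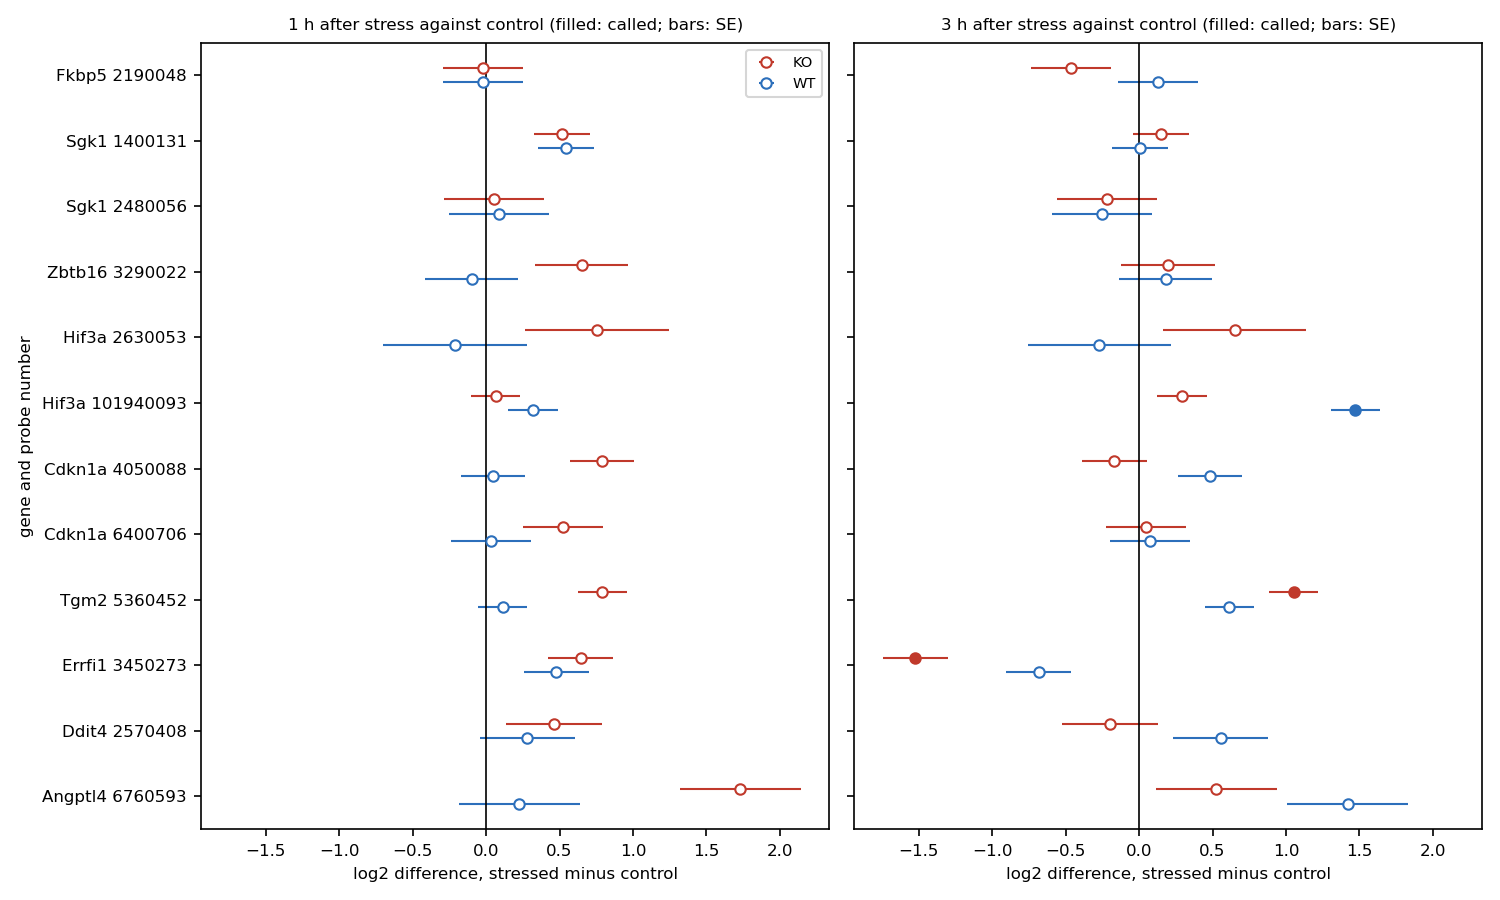
Log2 difference of stressed minus control pituitaries at 1 h (left panel) and 3 h (right panel) for the 12 probes that passed, in KO (red) and WT (blue), with SE bars and filled symbols where called. No symbol is filled at 1 h; at 3 h Tgm2 (1.05) and Errfi1 (-1.52) are filled in KO and Hif3a probe 101940093 (1.47) in WT.

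Taking the 6 group means as the samples, with genotype and time as terms, 1 of the 12 probes was called for genotype, beside 0.0833% of all probes in either direction and 0.0764% lower in KO. It was Cdkn1a probe 6400706, at -1.64 ± 0.20 (adjusted p = 0.0325), at least 1.63-fold lower in KO. This probe passed the filter only through WT arrays; of the 8 probes detected in both genotypes 0 were called for genotype by limma, beside 0.0252%. Cdkn1a probe 4050088 was at -1.55 ± 0.27 (adjusted p = 0.126), Hif3a probe 101940093 at -1.17 ± 0.25 (adjusted p = 0.153) and Tgm2 at -0.93 ± 0.20 (adjusted p = 0.164). For 1 h and for 3 h over both genotypes 0 of the 12 were called by limma, and 0% of all probes. At an unadjusted p under 0.05 there were 1 of the 12 (293 of all probes) at 1 h and 3 of the 12 (1604 of all probes) at 3 h.

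The 3 KO group means lay below the 3 WT group means for 5 of the 12 probes, in 4 genes (both Cdkn1a probes, Tgm2, Fkbp5 and Hif3a probe 101940093), beside 10.3% of all probes. Both Cdkn1a probes are among those that only WT arrays carried past the filter; of the 8 probes detected in both genotypes the count was 3, beside 8.89%. Over all 22 probes, detected or not, it was 7, beside 6.43% of the 46147 probes on the array. Those added were Tsc22d3 probe 6510072, detected on 1 array, and Sgk1 probe 104200048, detected on 0 arrays. Their values lie near background and are not measured levels. For each of the 5 probes that passed, the exact two-sided permutation test over 3 KO and 3 WT group means gave p = 0.1. That is the smallest value it can give. Means that do not overlap always give it, so the test adds nothing to the count. In no probe of the 22 did all KO means lie above all WT means. Pairs of arrays of the same slide and treatment were also counted, by normalised level. KO was below WT in 6 of 6 for 7 of the 12, beside 8.15% of all probes: those 5, Errfi1 and the second Sgk1 probe. Of the 8 probes detected in both genotypes it was 4 (Fkbp5, Hif3a, Tgm2 and Errfi1), beside 7.43%. Ddit4 and Hif3a probe 2630053 had KO below WT in 3 of 6 pairs, and Sgk1 probe 1400131 and Angptl4 in 4 of 6.

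Likeness to other probes was taken as Pearson's r over the 12 arrays, whose level also carries the genotype, time and slide that all probes share. The named probes most like Tgm2 were those of Abr (r = 0.958), Atp6v1d (r = 0.942) and Dynlrb1 (r = 0.941). Those most like Errfi1 were Tbc1d1 (r = 0.953), the clock gene Per1 (r = 0.947) and Polr1a (r = 0.944). Hif3a probe 101940093 was closest to a probe of Rgs5 (r = 0.952), Slc27a2 (r = 0.944) and Eprs (r = 0.940). Cdkn1a probe 4050088 was closest to Elmod2 (r = 0.956), the neuropeptide gene Gal (r = 0.953) and Ier3 (r = 0.952), and probe 6400706 to Ntrk3 (r = 0.977), Tesc (r = 0.961) and Syne1 (r = 0.958).

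Of 27 other genes known to respond to glucocorticoids, 22 passed detection. This list and those below were chosen with earlier results of these data known, so their counts are not independent support. Between controls 3 of the 22 were called, each lower in KO, beside 1.06% of all probes: the phosphatase gene Dusp1 (-1.50 ± 0.21, adjusted p = 0.0158), the transcription factor gene Klf15 (at least 2.14-fold, adjusted p = 0.0459) and Fam107a (-0.84 ± 0.16, adjusted p = 0.0439). Their median difference was -0.34, beside 0.00 for all probes, and 15 of the 22 were negative, beside 49.6% of all probes. At 1 h 0 were called by limma (7 at an unadjusted p under 0.05), with 15 of 22 negative, beside 51.6% of all probes, and a median of -0.31 beside -0.01. At 3 h Fam107a was called (-0.99 ± 0.16, adjusted p = 0.0279), and 19 of 22 were negative with a median of -0.51, beside 61.1% and -0.11 for all probes. The metallothionein gene Mt2 stood at -1.35 ± 0.32 (adjusted p = 0.0807) and Pdk4, a kinase that curbs pyruvate oxidation, at -1.17 ± 0.31 (adjusted p = 0.111), without a call.

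Stress called few of these 22. In KO 1 h pituitaries Dusp1 rose by 2.60 ± 0.21 (adjusted p = 0.00119), and in WT 1 h pituitaries it stood at 0.90 ± 0.21 (adjusted p = 0.348). In KO 3 h pituitaries Lcn2 (0.85 ± 0.16, adjusted p = 0.0198), Cebpb (0.81 ± 0.18, adjusted p = 0.0311) and Bcl6 (0.79 ± 0.18, adjusted p = 0.0301) rose, 3 of 22. Beside them, 470 of all 14405 probes were called higher and 8.68% in either direction. In WT 3 h pituitaries Lcn2 rose by 1.20 ± 0.16 (adjusted p = 0.0422). Mt2 stood at 1.98 ± 0.32 (adjusted p = 0.0652) in WT 3 h pituitaries. Of 14 genes of the receptor's own machinery 8 passed, the receptor genes Nr3c1 and Nr3c2 not among them, and Fkbp4 stands in both lists. In any comparison 0 of the 8 were called by limma, with at most 2 at an unadjusted p under 0.05. At 3 h 8 of 8 were negative in KO against WT, with a median of -0.22, beside 61.1% and -0.11 for all probes. Of 4 pituitary genes that glucocorticoids repress, 3 passed (Pomc, Crhr1 and Avpr1b) and 0 were called by limma in any comparison, with at most 1 at an unadjusted p under 0.05. Pomc differed by 0.00 between KO and WT at 1 h and at 3 h, because quantile normalisation gives probes of equal rank the same value. The missing call for Pomc therefore says little about its level. Crhr1, the gene knocked out, was read here by probe 450161, detected on 1 KO and 1 WT array. Its values therefore do not read repression.

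Other programmes that induce some of the 10 genes were read in the same way. Of 12 p53 target genes 7 passed. In KO 3 h against KO control pituitaries 3 of them rose, Trp53inp1 by 1.16 ± 0.16 (adjusted p = 0.00862), Zmat3 by 1.01 ± 0.24 (adjusted p = 0.0373) and Gadd45a by 0.62 ± 0.16 (adjusted p = 0.0423). That is 3 of 7, beside 470 of all 14405 probes called higher and 8.68% called in either direction. Trp53inp1 was also lower in KO than in WT controls (-0.88 ± 0.16, adjusted p = 0.0339). Of 13 hypoxia-responsive genes 10 passed and 1 was called, Kdm3a, a histone demethylase gene, in KO 3 h against KO control pituitaries (1.06 ± 0.17, adjusted p = 0.0132). Beside it, 470 of all 14405 probes were called higher there and 8.68% in either direction, and 1 gene is not read as a trait of the list. Of 13 immediate early genes, which many stimuli induce rapidly, 11 passed. In KO 1 h pituitaries 5 rose (Fos, Egr1, Egr2, Npas4 and Arc), beside 24 of all 14405 probes called higher. In WT 1 h pituitaries 1 rose (Npas4), beside 6 of all probes called higher. The medians were 1.93 in KO and 1.22 in WT. At 3 h against control, 8 of 11 were negative in KO, beside 58.7% of all probes. Of these, 4 were called (Egr3, Nr4a2, Jun and Egr1, at -2.96, -1.64, -1.43 and -1.16 in the fit), beside 780 of all 14405 probes called lower. In WT 10 of 11 were negative, beside 52% of all probes. Npas4 alone was called lower there (at least 1.51-fold, adjusted p = 0.0479), beside 13 of all probes. Of the 4, no KO 3 h array detected Egr3 or Jun, which were at least 2.20-fold and at least 1.20-fold lower. Fos was 3.10 ± 0.40 higher in KO 3 h than in KO control pituitaries (adjusted p = 0.00768), and its responses at 3 h differed by 4.19 ± 0.57 (KO minus WT; adjusted p = 0.0392). Between controls 3 of the 11 were called lower in KO, beside 1.06% of all probes: Fos (-2.67 ± 0.40, adjusted p = 0.0200), Egr2 (at least 1.09-fold, adjusted p = 0.0338) and Npas4 (at least 1.32-fold, adjusted p = 0.0300).

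Markers of the cell types a pituitary can hold moved with the groups in places. The hormone cell markers were present (8 of 9 passed), with a summed level of 230800 to 233100 over the KO groups and 220600 to 226800 over the WT groups (sum of normalised intensities). Quantile normalisation gives probes of equal rank the same value, so a sum carried by the brightest probes stays near constant by construction. It does not measure the amount of hormone cells. In KO 3 h against KO control pituitaries, where Tgm2 and Errfi1 were called, Tshb fell by 1.14 ± 0.19 (adjusted p = 0.0132) and the corticotrope factor gene Tbx19 rose by 0.98 ± 0.23 (adjusted p = 0.0374). Endothelial and pericyte markers (6 of 7) summed to 1617 to 2425 in KO and 1583 to 1873 in WT groups, and Kdr did not pass. Plvap rose in KO 3 h against KO control pituitaries (1.25 ± 0.20, adjusted p = 0.0119). The 2 Rgs5 probes ran opposite ways between KO and WT at 3 h: probe 101410068 was at 1.52 ± 0.24 (adjusted p = 0.0244) and probe 105890239, the one most like Hif3a and detected on 6 of 12 arrays, at -3.07 ± 0.22 in the fit (adjusted p = 0.000595). Folliculostellate and stem cell markers (3 of 5) summed to 639 to 751 in KO and 424 to 704 in WT groups, with Sox9 higher in KO controls (1.54 ± 0.25, adjusted p = 0.0237); S100b and Fxyd1 did not pass. Red blood cell markers (3 of 5) summed to 3814 to 4785 in KO and 2305 to 4114 in WT groups, with Hbb-b2 higher in KO than in WT controls (1.78 ± 0.25, adjusted p = 0.0163) and in WT 3 h than in WT control pituitaries (1.81 ± 0.25, adjusted p = 0.0426). Macrophage markers (3 of 5) summed to 618 to 943 in KO and 495 to 622 in WT groups, with Lyz2 at least 2.61-fold higher in KO 3 h than in KO control pituitaries (adjusted p = 0.0277); Cd68 and Csf1r did not pass. Posterior lobe markers (3 of 6) summed to 4401 to 5300 in KO and 4829 to 6211 in WT groups; Gfap and Avp were among those that did not pass. Of 3 adrenal markers only Star passed; Cyp11b1 and Cyp21a1 did not. The part of these cell types in the differences of the 10 genes was not tested.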

How the data were processed

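Total RNA from pituitaries was amplified, labelled with Cy3 and hybridised to 12 Illumina mouse arrays. Per the file headers, each deposited array file gives a mean bead intensity (AVG_Signal), its bead standard error, the number of beads and a detection p-value for each of 46147 probes; the submitters' processing notes name BeadStudio without a version. The deposited table of processed intensity values has array medians of 9.70 to 9.71 on the log2 scale after a floor of 16 and served as an alternative. It lacks 14 probes.

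Intensities were background-corrected with normexp using the deposited detection p-values (offset 16), quantile-normalised and log2-transformed in limma 3.58.1 (R 4.3.3). Probes detected at p under 0.01 on at least 2 arrays were kept. One term per group was fitted to all 12 arrays with lmFit and eBayes; a second fit used the 6 group means. The scripts were tested on simulated data. The number of arrays limits the precision. Gene symbols came from the platform annotation: 29542 probes have 1 symbol, 11 have several and 16594 have none.

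The 10 genes and all lists were chosen with earlier results of these data known. Every probe of the 10 genes is named. From a list, called genes are named, and up to 3 with the largest differences where fewer than 3 were called. Each list gene was counted by its passing probe with the highest mean level. The exact permutation test ran over 6 group means. Alternatives were no background correction, median scaling, no detection filter, the deposited table, a slide term, array weights, 1 probe per gene, only the groups compared, and leaving out each array. Same-numbered arrays share a slide; their deviations from group means correlated at -0.15 to 0.456, so the numbers were not treated as pairs of samples.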

Additional observations from a re-analysis of the deposited data

How the results depend on the processing

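No difference of the 12 probes changed its direction under any alternative among those called or at an unadjusted p under 0.05. Of the 13 called differences, 154 repeats stayed called and 90 were no longer called; of 31 others, 24 repeats were called and 478 were not. Counts of the 12 probes called moved by over 1.5 times as follows. With only the groups compared in the fit, the counts were 0 for KO 3 h against KO control, WT 3 h against WT control and all 3 KO to WT comparisons; such fits hold 4 arrays. Median scaling gave 1 for KO 3 h against KO control, 0 for WT 3 h, 0 for KO against WT at 1 h and 6 for genotype over the group means. Array weights gave 1 for KO 1 h, 1 for KO 3 h, 3 for KO against WT at 1 h and 2 at 3 h. No detection filter gave 0 at 1 h, 3 at 3 h and 0 for genotype. The deposited table gave 0 for WT 3 h, 0 for KO against WT at 1 h and 0 for genotype. No background correction gave 1 for the unequal responses at 3 h and 0 for genotype, and 1 probe per gene gave 0 for genotype. Smaller moves of the 3 h KO to WT count were to 7 without background correction (Fkbp5 and Angptl4 added) and to 6 with median scaling (Angptl4 added), and array weights gave 4 between controls (Hif3a added). Except where an alternative's own construction shows it, the cause was not tested.

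Leaving out 1 array at a time gave 0 to 1 for KO 1 h, 0 to 3 for KO 3 h, 0 to 1 for WT 3 h, 0 to 4 for KO against WT controls, 0 to 2 at 1 h, 2 to 8 at 3 h and 0 to 4 for the unequal responses at 3 h. The 8 and the 4 came without KO 3 h replicate 1, leaving the array that stood apart alone, and a lone array is assumed to vary like the other groups. Without KO 3 h replicate 2 the 3 h count was 2, Hif3a and Cdkn1a probe 4050088. Each call between controls was lost without any 1 of the 4 control arrays (adjusted p = 0.0777 to 0.152). The 3 h KO to WT calls of Tgm2 and Errfi1 were each lost without any 1 of 11 arrays, all but KO 3 h replicate 1 (adjusted p = 0.0571 to 0.306), and that of Cdkn1a probe 6400706 without KO 3 h replicate 2 or any WT 1 h or WT 3 h array (adjusted p = 0.0501 to 0.192). Genotype over group means gave 0 without replicate 1 and 1 without replicate 2. With slide as a replicate block the 3 h count was 6, Fkbp5 being added, and each other count was unchanged (2 for KO 3 h, 1 for WT 3 h, 3 between controls).

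Over all probes the counts also moved: 1250 for KO 3 h against KO control (0 to 3902), 241 between controls (6 to 906), 117 at 1 h (0 to 540), 199 at 3 h (0 to 3201), 29 for KO 1 h (8 to 118), 9 for WT 1 h (0 to 29), 24 for WT 3 h (1 to 76), 8 and 20 for unequal responses at 1 h (3 to 39) and 3 h (8 to 2103), 12 for genotype (1 to 404), and 0 for 1 h (0 to 11) and 3 h (0 to 35) over both genotypes. Signal near background limits Tsc22d3, Zbtb16, the second Sgk1 probe and Cdkn1a in KO.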
